A study of Mus musculus with 8 samples.

Results

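The genes of the axoneme, the microtubule core of a motile cilium or sperm tail, were followed here through 8 RNA-seq libraries of mouse spermatocytes. Members were chosen by name alone. They are the protein-coding genes whose symbols begin with Dnah and a number, Dnaic, Dnali, Drc and a number, Cfap and a number, Rsph, or Tekt and a number. The rule gave 65 of the 54532 genes listed and used no measured value. By family they were 15 Dnah, 2 Dnaic, 1 Dnali, 3 Drc, 31 Cfap, 8 Rsph and 5 Tekt genes. Levels are in FPKM, fragments per kilobase of gene length scaled to the fragments of each library, so that genes of different length can be compared. Of the 65 members, 62 were above 1 FPKM in at least 1 library, and Dnah5, Rsph4a and Cfap97d2 were below it in all 8.

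The mice were C57BL/6J. MFN2 WT animals were labelled Mfn2 loxp/loxp and MFN2 cKO animals Mfn2 loxp/loxp; Stra8-Cre, and by the study's methods some controls may carry 1 floxed allele only. Mfn2 encodes a mitochondrial fusion GTPase, and Stra8-Cre is active in male germ cells from early spermatogonia on, so somatic cells of the testis keep the gene. Pachytene (P) and leptotene/zygotene (L/Z) spermatocytes were taken at postnatal day (PD) 24 and PD 52 by sedimentation through an albumin gradient, which enriches by size and does not sort on a marker. Each of the 8 groups of genotype, stage and age held 1 library, so that a difference within a pair of libraries has no replicate check. In bulk RNA, fewer cells of a type and less RNA per cell cannot be told apart.

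In the axoneme, 9 doublet microtubules surround a central pair. Outer and inner dynein arms on the doublets are motors that slide one doublet against the next, and the nexin-dynein regulatory complex links the doublets and turns sliding into bending. Radial spokes reach from the doublets to the central apparatus and pass signals to the arms, while tektins and other small proteins line the inside of the doublets. In the testis the sperm tail is built in spermatids, after meiosis, but many of its mRNAs already accumulate in spermatocytes. RFX transcription factors, which bind a DNA element called the X-box, are known activators of ciliary genes, and RFX2 is needed in male germ cells.

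Values of a gene in the 8 libraries are given throughout in 1 order: L/Z at PD 24 (MFN2 WT, then MFN2 cKO), P at PD 24 (WT, cKO), L/Z at PD 52 (WT, cKO) and P at PD 52 (WT, cKO). The libraries held 14340665 to 20379950 reads on genes, of which members took 1.14 to 1.86%. Mfn2 itself stood at 82.2, 34.3, 77.1, 39.6, 97.5, 47.9, 62.2 and 50.1 FPKM, lower in MFN2 cKO in each of the 4 pairs, by least in the P pair at PD 52. These reads cover the whole gene and not the floxed exon alone.

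Cell type markers did not follow the stage labels in every respect. Of the 10 pachytene markers 8 were higher in P over the 4 pairs (median log2 difference 0.29), and 3 passed the stage test, Piwil1, Mybl1 and Tex101. Piwil1, a piRNA pathway gene that rises in pachytene, was at 22.2, 19.9, 278, 218, 40.5, 16.0, 168 and 172 FPKM, higher in P than in L/Z in each pair. Ccna1, also of that list, was at 88.4, 114, 83.2, 83.1, 89.9, 114, 86.8 and 102 FPKM, lower in P in each pair. The leptotene and zygotene markers were mixed, since Tex15 passed the stage test as lower in P and Spo11, Hormad1, Meiob and Sycp2 as higher. Dmc1, the meiotic recombinase, was at 14.6, 17.2, 7.45, 5.56, 8.70, 5.20, 7.68 and 3.59 FPKM, above the matching P library in each pair. The 15 markers of round and elongating spermatids summed to 2951, 607, 1461, 167, 12322, 21721, 5401 and 2643 FPKM. They were thus higher in the library labelled L/Z than in the matching P library at both ages and in both genotypes, and lowest in MFN2 cKO at PD 24. All 10 Sertoli cell markers passed as higher in P, with sums of 27.4 to 262 FPKM in L/Z and 332 to 820.1 in P libraries. Macrophage markers passed as lower in P in 7 of 8 and peritubular myoid markers in 4 of 4 tested, with sums of 21.9 to 174 and 46.5 to 159.9 FPKM in L/Z against 9.24 to 48.8 and 5.11 to 32.5 FPKM in P. The part of these other cells in the results was not tested. Of the 10 markers of ciliated epithelium of the rete testis and efferent ducts, 6 or 7 were under 1 FPKM in every library, among them the defining genes Mcidas, Gmnc, Sntn, Pax8 and Krt7. Foxj1 and Deup1, which germ cells also transcribe, made up nearly all of that list's sum, and were at 49.0, 42.1, 18.9, 14.0, 68.5, 73.9, 45.8 and 32.7 FPKM and 61.7, 45.8, 30.5, 16.4, 122, 144, 60.9 and 61.3 FPKM.

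RefSeq promoter windows, from 250 bases before to 50 after a start site on GRCm38.p6, were found for 54 members, in 61 windows. One arm of the X-box, GTTGCC on either strand, occurred in 22 of the 61 member windows (36.1%), against 12.5% of all 32851 windows. The full X-box, searched as GTTNCC and GGNAAC with 2 bases between, was in 1 member window, that of Cfap298, and in 0.451% of all. The cyclic AMP response element TGACGTCA, the site of the testis activator CREM, was in 1 member window, that of Dnah6, and in 1.79% of all. GTTGCC can be part of the full X-box, and a match is a description of the sequence and not a measured binding site. The stage test described further on called 7 members higher in P and 9 higher in L/Z that had a window. GTTGCC was in 5 and 4 of these, in 37% of all members with a window and in 14.1% of all genes with a window. The 5 include Dnah7a, Dnah7b and Dnah7c, which share sequence and are not independent.

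The stretches shown here lie before the start site of 6 members, to let the element be seen in genes of either stage pattern. Each runs 5′ to 3′ on the gene's strand with up to 24 bases on either side, on GRCm38.p6, and capitals mark GTTGCC or its reverse complement. Dnah7a, Dnah7c and Cfap74 were higher in P, Cfap58 and Tekt2 were higher in L/Z, and Dnah10 passed in neither direction. Dnah7a and Dnah7c are copies of one gene, both on chromosome 1.
Dnah7a, chr1:53706955-53707008, minus strand: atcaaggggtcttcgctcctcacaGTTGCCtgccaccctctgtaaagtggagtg
Dnah7c, chr1:46425275-46425328, plus strand: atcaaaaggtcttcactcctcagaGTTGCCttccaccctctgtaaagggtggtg
Dnah10, chr5:124725041-124725084, plus strand: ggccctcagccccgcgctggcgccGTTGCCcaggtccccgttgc
Cfap74, chr4:155409050-155409103, plus strand: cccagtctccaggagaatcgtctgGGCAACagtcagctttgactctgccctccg
Cfap58, chr19:47937629-47937682, plus strand: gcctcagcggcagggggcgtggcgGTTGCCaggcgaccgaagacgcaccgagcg
Tekt2, chr4:126325689-126325808, minus strand: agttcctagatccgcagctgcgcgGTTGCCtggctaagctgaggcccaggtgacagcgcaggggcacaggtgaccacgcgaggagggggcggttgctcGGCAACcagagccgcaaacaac

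**Figure D1:**
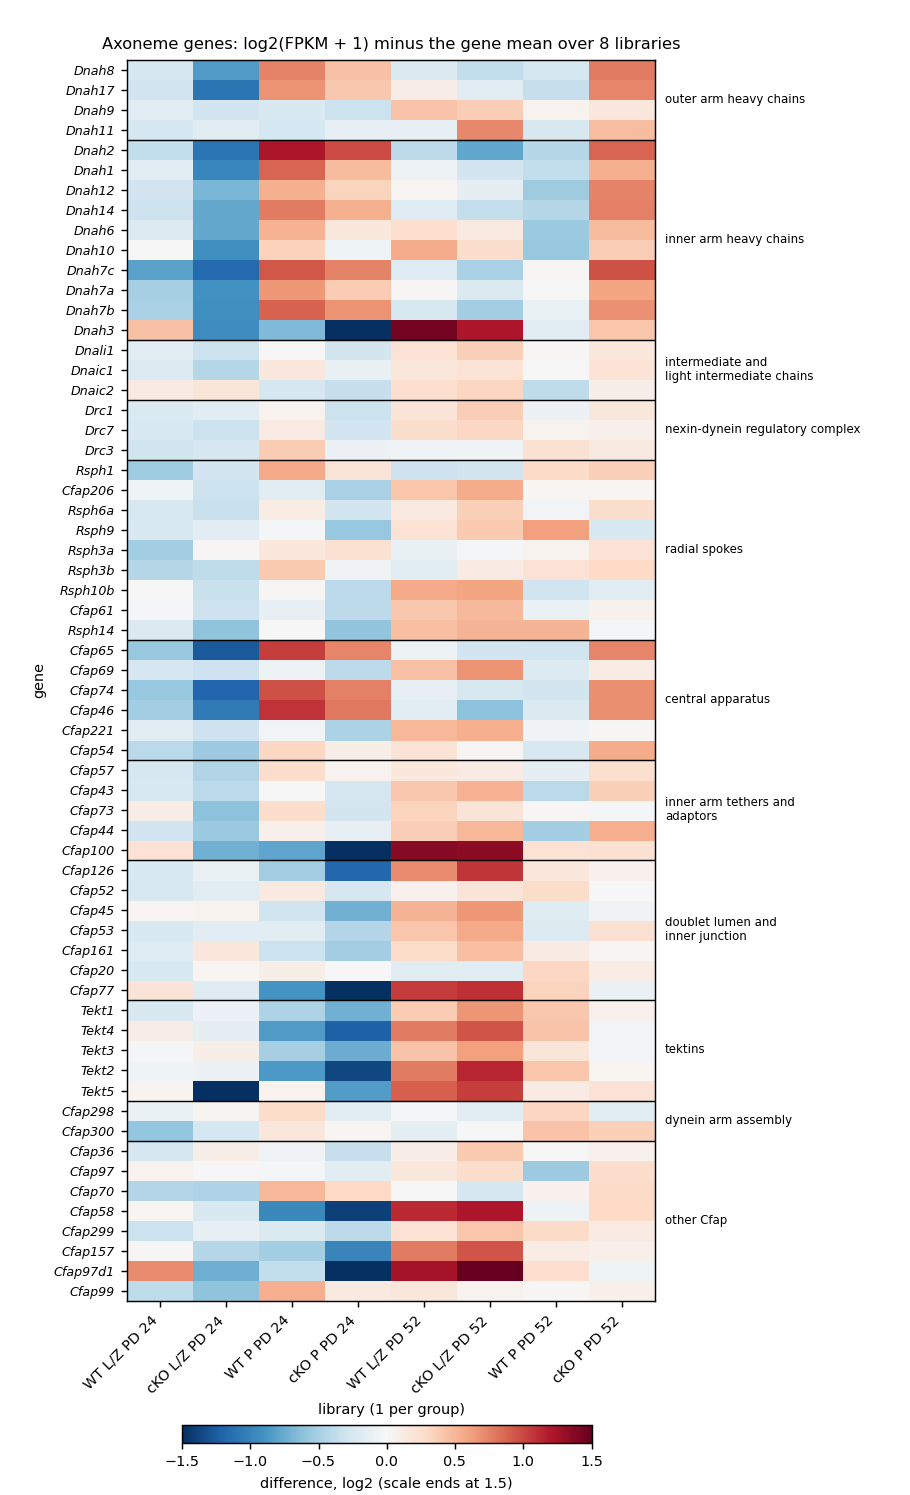
Level of each of the 62 members above the filter (rows, by role) in the 8 libraries (columns, 1 per group), as log2(FPKM + 1) minus the gene's mean over the libraries, with red higher and blue lower; colours end at 1.5. Most heavy chains are red in P at PD 24 and in MFN2 cKO P at PD 52, while tektins, Cfap100, Cfap97d1 and Dnah3 are darkest red in L/Z at PD 52 and blue in MFN2 cKO P at PD 24.

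Some radial spoke genes and tektins led the members in level. Rsph1, a radial spoke head protein (GRCm38, chr17:31255019-31277356), had the highest mean and stood at 537, 639.7, 1151, 893, 628, 646, 949 and 997 FPKM. Cfap206, a radial spoke protein of the inner arm region, followed at 272, 229, 256, 204, 382, 421, 291 and 292 FPKM, and Tekt1 came next. Among the lowest, Cfap97d2 was at 0.276, 0.129, 0.393, 0.358, 0.515, 0.399, 0.325 and 0.847 FPKM, below 1 in all libraries. Over the 62 members the highest library was most often MFN2 cKO L/Z at PD 52 (28 genes) and the lowest MFN2 cKO L/Z at PD 24 or MFN2 cKO P at PD 24 (26 genes each), as the heat map shows.

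The outer arm heavy chains split by paralog. Dnah8, the gamma-type heavy chain of sperm outer arms (GRCm38, chr17:30624354-30875264), was the most abundant Dnah gene, at 82.8, 54.5, 167, 135, 85.0, 76.5, 82.2 and 170.2 FPKM. Dnah17, the beta-type heavy chain of sperm, was at 37.2, 20.8, 73.5, 61.1, 48.9, 40.7, 35.8 and 76.8 FPKM. Both were high in the P libraries at PD 24 and in MFN2 cKO P at PD 52, while MFN2 WT P at PD 52 lay with the L/Z libraries. The paralogs known from airway cilia were nearly absent. Dnah9 stood at 0.335, 0.219, 0.270, 0.189, 1.01, 0.918, 0.543 and 0.670 FPKM and Dnah5 at 0.125, 0.180, 0.0793, 0.103, 0.718, 0.840, 0.243 and 0.502 FPKM. Dnah11 was at 0.0586, 0.129, 0.0651, 0.171, 0.166, 1.10, 0.0776 and 0.758 FPKM, with its 2 highest values in the MFN2 cKO libraries at PD 52. The lowest Dnah17 value, 20.8 FPKM, compares with 1.10 FPKM as the highest of Dnah9, Dnah5 and Dnah11, as the plot of the paralogs shows.

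The radial spoke head showed the same kind of split. Rsph6a, the head protein of sperm spokes, was at 108, 101, 138, 105, 141, 164, 124 and 153 FPKM, while its airway paralog Rsph4a was at 0.174, 0.139, 0.217, 0.368, 0.165, 0.356, 0.137 and 0.189 FPKM. Rsph3a and Rsph3b encode near-identical spoke stalk proteins and were at 33.4, 49.0, 54.1, 56.7, 44.9, 47.3, 50.2 and 56.7 FPKM and at 19.1, 19.6, 34.5, 25.0, 22.9, 28.4, 30.3 and 32.0 FPKM. Of the 150-base windows of their longest transcripts, 55.6% and 59.4% recur in another gene, chiefly in each other, so the division of reads between them is uncertain. The same holds to a lesser degree for Dnah7a, Dnah7b and Dnah7c, with 10.4, 11.0 and 13.3% of windows shared.

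**Figure D2:**
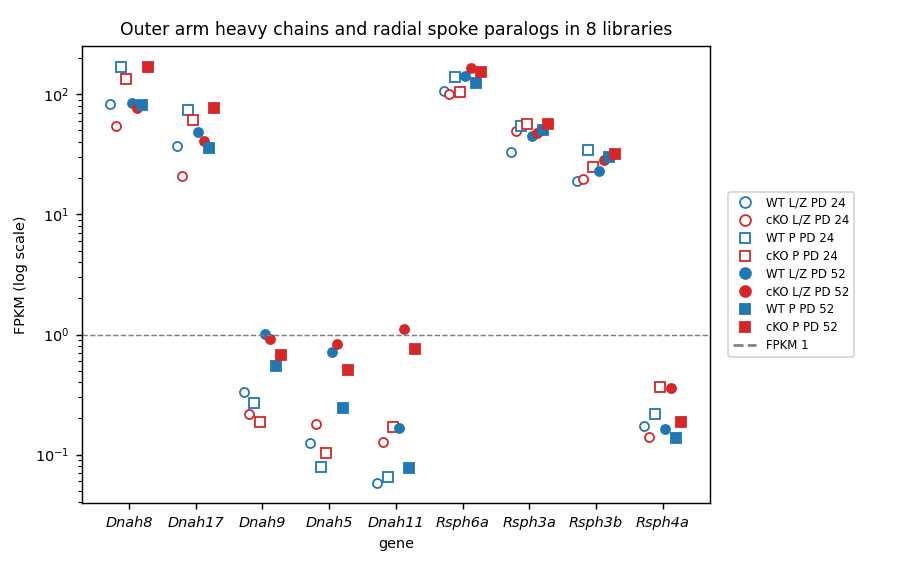
FPKM (log scale) of the 5 outer arm heavy chains and 4 radial spoke genes in each library; circles are L/Z and squares P, open symbols PD 24 and filled PD 52, blue MFN2 WT and red MFN2 cKO, and the dashed line marks 1 FPKM. Dnah8, Dnah17 and Rsph6a lie above 20 FPKM in every library, while Dnah9, Dnah5, Dnah11 and Rsph4a do not exceed 1.10 FPKM.

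P was compared with L/Z over the 4 pairs of equal genotype and age, by limma on log2(FPKM + 1) across 21175 genes. Of the 62 members tested, 8 were higher in P and 11 lower in P at a Benjamini-Hochberg adjusted p under 0.05. Among all genes 12.0% were called higher and 15.9% lower. The members' shares, 12.9 and 17.7%, lay near that background, and their median difference was -0.03 against -0.04 for all genes. Those higher in P were the heavy chains Dnah2, Dnah7a, Dnah7b, Dnah7c and Dnah8, the central apparatus genes Cfap46 and Cfap74, and Rsph1. Those lower in P were Tekt2, Tekt3 and Tekt4, the doublet proteins Cfap45, Cfap77 and Cfap126, and Cfap58, Cfap97d1, Cfap100, Cfap157 and Dnah3. No role had all its members called, with 4 of 10 inner arm heavy chains and 2 of 6 central apparatus genes called higher, and 3 of 5 tektins called lower.

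Dnah2, a heavy chain of the double-headed inner arm (GRCm38, chr11:69420809-69549110), was at 16.3, 9.48, 50.8, 43.1, 16.1, 12.1, 15.7 and 39.9 FPKM. It was higher in P by 1.32 (SE 0.33, limma adjusted p = 0.028) on the log2 scale, although MFN2 WT at PD 52 showed no difference. Dnah7c, a single-headed inner arm chain, was at 6.11, 4.54, 22.7, 19.7, 9.82, 7.85, 11.6 and 23.1 FPKM and higher in P by 1.32 (SE 0.28, limma adjusted p = 0.017). Cfap46, of the central apparatus, was at 11.8, 7.85, 37.9, 30.9, 15.5, 11.0, 14.9 and 28.7 FPKM and higher in P by 1.18 (SE 0.31, limma adjusted p = 0.031). In each of these genes the 3 P libraries other than MFN2 WT at PD 52 lay above every L/Z library. Dnah12, another single-headed inner arm chain, was at 14.5, 10.8, 26.4, 22.8, 18.3, 16.2, 12.1 and 30.8 FPKM and, with MFN2 WT P at PD 52 below 3 of the 4 L/Z libraries, did not pass (0.54, limma adjusted p = 0.18). Rsph1 differed from the heavy chains in that MFN2 WT P at PD 52 was also high, and its 4 P values lay above its 4 L/Z values (0.70, SE 0.17, limma adjusted p = 0.022).

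Dnah3, also an inner arm heavy chain (GRCm38, chr7:119922671-120095280), went the other way. It stood at 11.2, 3.68, 4.68, 1.69, 23.3, 20.0, 7.08 and 11.0 FPKM, highest in L/Z at PD 52 and lowest in MFN2 cKO P at PD 24, and was lower in P, with a log2 difference of -1.07 (SE 0.18, limma adjusted p = 0.009). It shares 9.06% of its 150-base windows with the overlapping gene Lyrm1, which was named after its values were seen. Lyrm1 was at 4.38, 4.35, 6.26, 5.12, 5.39, 5.10, 5.32 and 5.55 FPKM and did not follow Dnah3. The part of this overlap in the Dnah3 values was not tested.

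The tektins, filament proteins inside the doublets, had negative stage differences in all 5 genes, and 3 passed. Tekt2 (GRCm38, chr4:126322121-126325688) was at 113, 111, 64.2, 45.1, 203, 261, 157 and 120.4 FPKM and lower in P, with a log2 difference of -0.89 (SE 0.19, limma adjusted p = 0.017). Another transcript, Gm12945, overlies 20.8% of its exon bases and stayed under 1 FPKM. The part of this overlap in the Tekt2 values was not tested. Tekt4 was at 183, 154, 94.1, 73.0, 293, 329.9, 229.8 and 166 FPKM and lower in P, with a log2 difference of -0.84 (SE 0.18, limma adjusted p = 0.016). Tekt3 was at 127, 139, 91.8, 77.3, 175, 200.4, 148 and 127 FPKM (-0.55, SE 0.16, limma adjusted p = 0.044). All 3 were highest in the L/Z libraries at PD 52 and lowest in MFN2 cKO P at PD 24. Tekt1, at 189, 208, 160.3, 134, 289, 350.1, 293 and 232 FPKM, and Tekt5, at 36.0, 11.6, 36.2, 19.1, 66.0, 72.5, 38.2 and 40.7 FPKM, did not pass for stage, with adjusted p of 0.15 and 0.54 by limma.

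Among the Cfap genes lower in P, Cfap97d1, a small gene of sperm axoneme maintenance (GRCm38, chr11:101984279-101992264), had the widest range of all members. It was at 36.6, 12.8, 16.7, 2.02, 53.7, 82.9, 26.4 and 20.9 FPKM and lower in P, with a log2 difference of -1.55 (SE 0.24, limma adjusted p = 0.0069). Cfap100, known to anchor an inner arm on the doublet, was at 12.9, 6.26, 5.89, 2.27, 29.8, 29.3, 12.9 and 13.0 FPKM (-1.11, SE 0.14, limma adjusted p = 0.0053). Cfap77, a doublet protein, was at 6.60, 4.81, 2.57, 1.33, 12.7, 13.2, 7.39 and 5.20 FPKM (-1.08, SE 0.16, limma adjusted p = 0.0066), and Cfap58, a coiled-coil protein of the sperm tail, was at 51.3, 42.9, 25.3, 18.3, 110.4, 118, 47.6 and 62.1 FPKM (-1.07, SE 0.15, limma adjusted p = 0.0056). In these 4 genes the L/Z library was above the P library in each of the 4 pairs. So were the summed spermatid markers, of which 14 of 15 passed as lower in P. The order of the libraries by Cfap97d1 was the same as by the spermatid sum, but for MFN2 WT P at PD 52 and MFN2 WT L/Z at PD 24, which changed places.

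Dnaic1, an intermediate chain of the outer arm, was at 40.7, 34.7, 52.8, 43.6, 53.3, 54.3, 47.2 and 54.7 FPKM, and Dnali1, an inner arm light intermediate chain and the highest of its role, was at 89.9, 80.3, 102, 83.2, 117, 129.8, 102 and 113 FPKM. Drc1, a scaffold of the nexin-dynein regulatory complex, was at 51.9, 54.2, 63.2, 48.2, 69.3, 78.9, 57.2 and 68.7 FPKM. The highest value of these 3 genes was 1.57 to 1.64 times the lowest, and 0 of the 6 members of these roles passed for stage by limma on log2(FPKM + 1). Voom called 1 of them, Dnaic2, lower in P (-0.46, limma adjusted p = 0.038). Cfap161 and Cfap20, proteins of the doublet, were at 34.2, 44.0, 31.2, 27.0, 47.6, 54.1, 42.8 and 40.2 FPKM and at 23.1, 27.7, 28.8, 27.2, 24.3, 24.3, 33.9 and 29.4 FPKM, and neither passed for stage. Rsph9, Rsph10b and Rsph14, of the spoke, were at 52.4, 54.7, 60.5, 41.4, 72.1, 81.0, 94.8 and 52.7 FPKM, at 16.6, 12.9, 16.8, 12.3, 25.0, 25.3, 13.2 and 14.6 FPKM and at 5.83, 4.21, 6.88, 4.25, 9.83, 10.2, 10.2 and 6.75 FPKM. In Rsph9 the highest library was MFN2 WT P at PD 52, which is unlike the heavy chains.

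The stage calls rested on single pairs of libraries. Without the MFN2 WT pair at PD 24, or without the MFN2 cKO pair at PD 52, no gene of the 21175 passed, and without the MFN2 cKO pair at PD 24 the members numbered 0 higher and 5 lower. Without the MFN2 WT pair at PD 52 they numbered 15 higher and 9 lower in P. In single pairs, with no test, 15 of 60 members differed at least 2-fold on FPKM + 1, the scale of all such counts here unless another is named, in MFN2 WT at PD 24 (16.3% of all genes did) and 19 of 60 in MFN2 cKO at PD 24 (20.0%). At PD 52 the counts were 4 of 61 in MFN2 WT (20.2%) and 12 of 61 in MFN2 cKO (24.7%). In MFN2 WT 11 of 60 members were 2-fold higher in P at PD 24 (8.03% of all genes) and 0 of 61 at PD 52 (9.90%). With further scaling of the libraries 7 instead of 11 were 2-fold higher in the PD 24 pair (6.29% of all genes). The difference of the stage effect between ages passed for no member or other gene by limma (0% called). On simulated data this test found 0% of planted 2-fold and 18.4% of planted 4-fold changes. Its lack of calls therefore does not show an equal stage effect at both ages. At an unadjusted p under 0.05 there were 4 of 62 members, Cfap65, Cfap74, Cfap99 and Rsph10b, all with negative values. Of the 21175 genes, 505 were positive and 564 negative at that p. Limma voom on recovered reads also called none.

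Age gave calls in 1 direction only. PD 52 was compared with PD 24 over the 4 pairs of equal genotype and stage, and 12 of 62 members were higher at PD 52 and 0 lower. Among all genes 11.2% were called higher and 4.91% lower. The members' median was 0.32 against 0.0048 over all genes, and 55 of the 62 were above 0, as were 50.3% of all genes. The MFN2 WT P pair differed, with 35 of 60 members lower at PD 52 and a median of -0.13, against -0.02 over all genes. The members' medians in the other pairs were 0.46 (MFN2 WT L/Z), 0.69 (MFN2 cKO L/Z) and 0.42 (MFN2 cKO P). The members called were Tekt1, Tekt2, Tekt3 and Tekt4, Cfap58, Cfap77, Cfap100, Cfap126, Cfap157 and Cfap299, Dnah3 and Rsph14. The largest were Cfap100 (1.58, SE 0.24, limma adjusted p = 0.019), Dnah3 (1.46, SE 0.32, limma adjusted p = 0.035) and Cfap58 (1.28, SE 0.18, limma adjusted p = 0.019). Tekt2 rose by 1.19 (SE 0.16, limma adjusted p = 0.019), Tekt4 by 1.06 (SE 0.16, limma adjusted p = 0.019) and Tekt1 by 0.75 (SE 0.14, limma adjusted p = 0.024). Tekt5, with 1.13 and an adjusted p of 0.091 by limma, did not pass, nor did Cfap97d1 with 1.66 and 0.057. Limma voom on recovered reads called 18 members higher, Cfap97d1 among them (1.56, limma adjusted p = 0.047), beside 2757 of the 21175 genes. At an unadjusted p under 0.05 there were 23 members higher and 0 lower, beside 4477 higher and 3426 lower of the 21175 genes.

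The stage and age tests use the same 8 libraries, so their lists are given side by side and not as support for each other. Of the spermatid markers 14 of 15 were higher at PD 52, while 5 of 10 Sertoli cell and 2 of 4 tested peritubular myoid markers were lower. The heavy chains other than Dnah3 lay between -0.36 in Dnah2 and 0.50 in Dnah9 for age and none of them passed, as the plot of both differences shows. Voom, which does not compress low values, called Dnah9 (1.61, limma adjusted p = 0.011) and Dnah11 (2.09, limma adjusted p = 0.020) higher at PD 52.

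**Figure D3:**
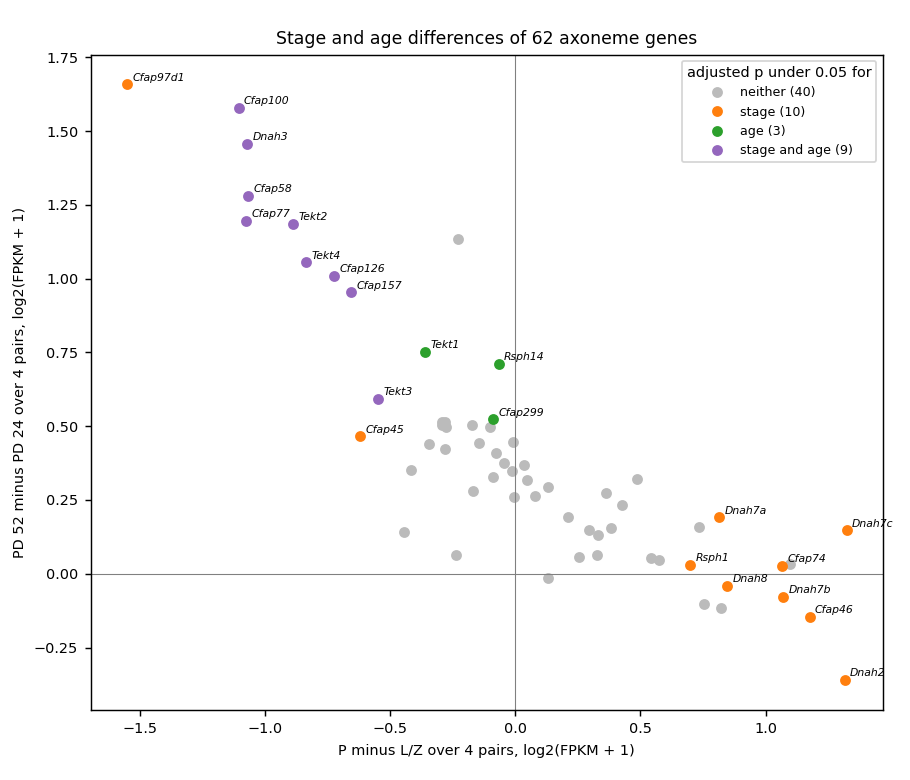
Difference of P from L/Z (horizontal) and of PD 52 from PD 24 (vertical), each over 4 pairs on log2(FPKM + 1), for the 62 members tested; colour marks the test passed at a limma adjusted p under 0.05. Tektins, Cfap100, Cfap58, Cfap77 and Dnah3 lie at the upper left, and the heavy chains Dnah2, Dnah7a, Dnah7b, Dnah7c and Dnah8 at the right, with age differences of -0.36 to 0.19.

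The age calls also rested on single pairs. Without the MFN2 WT L/Z, the MFN2 cKO L/Z or the MFN2 cKO P pair, no gene passed, and without the MFN2 WT P pair 12 members did. In single pairs, with no test, members at least 2-fold different were 2 of 61 in MFN2 WT L/Z (13.3% of all genes), 13 of 61 in MFN2 cKO L/Z (31.5%) and 10 of 60 in MFN2 cKO P (18.9%), each of them higher at PD 52. In MFN2 WT P there were 14 of 60 (14.6%), with Cfap77, Cfap100, Tekt2 and Tekt4 higher at PD 52. The 10 lower there were Cfap46, Cfap65, Cfap74 and the heavy chains Dnah1, Dnah2, Dnah6, Dnah8, Dnah12, Dnah14 and Dnah17.

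Against genotype, no member passed. The common difference of MFN2 cKO from MFN2 WT over the 4 pairs was called by limma for 0 of 62 members, while 0.0803% of all genes were called higher and 0.00472% lower. No member had an unadjusted p under 0.05 either, and limma voom called 0, with 1 at an unadjusted p under 0.05. The members' median was -0.04, as was that of all genes. The largest differences were those of Cfap97d1 (-0.93, SE 0.48, limma adjusted p = 0.77), Tekt5 (-0.55, SE 0.31, limma adjusted p = 0.78) and Dnah3 (-0.52, SE 0.33, limma adjusted p = 0.82). The 95% interval for Cfap97d1 ran from -2.08 to 0.23, a range that includes 0 as well as a large fall. Leydig cell markers did move with genotype, with 3 of 7 higher in MFN2 cKO and sums of 19.7 to 255 FPKM in MFN2 WT and 99.0 to 641 FPKM in MFN2 cKO. Macrophage and erythroid markers had sums above MFN2 WT in each of the 4 pairs, with 8 of 8 and 4 of 4 genes above 0 in the common difference (medians 1.38 and 1.03), though 0 passed. Spermatid markers had 0 of 15 genes above 0 (median -0.91), and 0 passed. The part of these cells in the member values was not tested.

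The pairs differed in direction. In L/Z at PD 24, 41 of 60 members were lower in MFN2 cKO, with a median of -0.21 against 0.08 over all genes. In P at PD 24, 59 of 60 were lower, with a median of -0.32 against -0.10. In L/Z at PD 52, 38 of 62 were higher (median 0.05 against 0.02), and in P at PD 52, 42 of 60 were higher (0.15 against -0.05). At PD 24, 31.7% of members against 57.0% of all genes were higher in MFN2 cKO in L/Z, and 1.67 against 37.9% in P. At PD 52 these shares were 61.3 against 53.0% in L/Z and 70 against 45.6% in P. Further scaling of the libraries moves the median of all genes by up to 0.12 in such comparisons, in P against L/Z of MFN2 WT at PD 24.

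At PD 24 the largest differences were in Cfap97d1, Dnah3, Cfap100 and Tekt5, all lower in MFN2 cKO. In L/Z, 3 members were at least 2-fold lower and 0 higher on FPKM + 1, where 7.03% of all genes were lower and 3.45% higher. By plain FPKM, Cfap100 and Dnah10 made it 5 lower (11.0% of all genes). The ratios given next are of plain FPKM. Tekt5 was lower 3.10-fold (95% counting interval 2.76 to 3.50), Dnah3 3.04-fold (95% counting interval 2.82 to 3.27) and Cfap97d1 2.86-fold (95% counting interval 2.42 to 3.41). In P, 3 were lower and 0 higher on either scale (6.29 and 1.79% of all genes on FPKM + 1). Cfap97d1 was lower 8.27-fold (95% counting interval 5.66 to 12.5), with 30 reads in MFN2 cKO and 269 in MFN2 WT. Dnah3 was lower 2.76-fold (95% counting interval 2.48 to 3.08) and Cfap100 2.60-fold (95% counting interval 2.18 to 3.11). The summed spermatid markers were lower in MFN2 cKO in both of these pairs, at 607 against 2951 FPKM and 167 against 1461 FPKM. These intervals cover counting error only. In L/Z the compared members over 12 kb had a median of -0.56, where other protein-coding genes of that length had -0.21, and the part of gene length was not tested. Upward differences were smaller. Rsph3a in MFN2 cKO was 1.47-fold its MFN2 WT level and Cfap161 1.29-fold in L/Z, and Rsph3a, at 1.05-fold, was the 1 member of 60 above its MFN2 WT level in P.

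In L/Z at PD 52 no member differed at least 2-fold on FPKM + 1, where 4.83% of all genes were higher and 3.12% lower in MFN2 cKO. By plain FPKM 1 member did, Dnah11, with 233 reads in MFN2 cKO and 36 in MFN2 WT (9.21% of all genes were higher and 7.28% lower on that scale). The largest differences were Dnah11 at 0.85 and Cfap97d1 at 0.62 upward and Cfap46 at -0.46 and Dnah2 at -0.38 downward, on the log2(FPKM + 1) scale.

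In P at PD 52, 8 members were at least 2-fold higher in MFN2 cKO on FPKM + 1 and 0 lower, where 5.21% of all genes were higher and 5.78% lower. They were Dnah2, Dnah6, Dnah8, Dnah12, Dnah14, Dnah17, Cfap44 and Cfap65. By plain FPKM, Cfap74 and Dnah10 made it 10 (10.3% of all genes were higher). With further scaling of the libraries, on FPKM + 1, there were 12, with Dnah1 and Dnah7c as well (5.70% of all genes were higher). As ratios of plain FPKM, Dnah2 was 2.55-fold (95% counting interval 2.45 to 2.65) higher, Dnah12 2.55-fold (95% counting interval 2.43 to 2.68) and Dnah8 2.07-fold (95% counting interval 2.04 to 2.11). All 10 inner arm heavy chains were higher, from 0.58 in Dnah3 to 1.29 in Dnah2 on the log2 scale. All 6 central apparatus genes were higher too, with a median of 0.85. The tektins were lower in 4 of 5 (median -0.34), and Rsph9 (-0.83) and Rsph14 (-0.54) had the lowest values. In this pair the Sertoli cell and spermatid marker sums were lower in MFN2 cKO, at 332 and 2643 FPKM against 674 and 5401. The Leydig cell and macrophage marker sums were higher, at 641 and 22.8 FPKM against 255 and 9.24. The part of these cells was not tested.

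**Figure D4:**
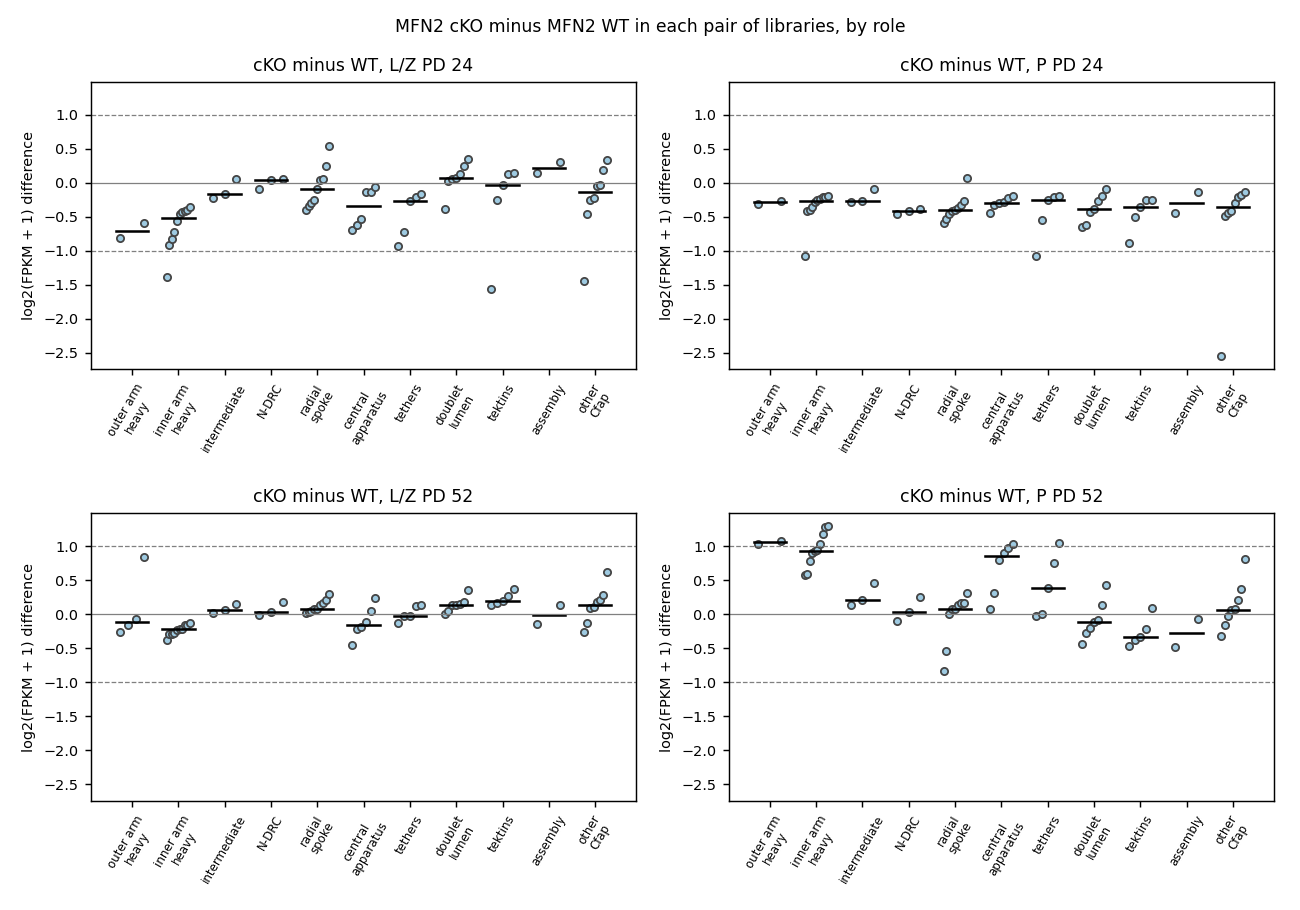
Difference of MFN2 cKO from MFN2 WT in log2(FPKM + 1) for each member (points) by role, in the 4 pairs of libraries; black bars are medians, dashed lines mark 2-fold, and each pair has 1 library per genotype. Almost all points are below 0 in P at PD 24, and heavy chains lie at 0.58 to 1.29 in P at PD 52.

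The MFN2 WT library of P at PD 52 stood apart from the other P libraries in most heavy chains. Dnah2 was at 15.7 FPKM there, against 39.9 to 50.8 FPKM in the other P libraries and 9.48 to 16.3 FPKM in L/Z. Long genes in general were low in that library. Among protein-coding genes that are no members, the median of MFN2 cKO minus MFN2 WT in P at PD 52 went from -0.60 for genes up to 1 kb, in steps, to 0.27 for the 575 genes over 12 kb. The 13 compared members over 12 kb, all Dnah or Cfap54, had a median of 0.94. Members of 1 to 2 kb had a median of -0.19, where other protein-coding genes of that length had -0.38, as the plot against gene length shows. Differences were also centred within length classes, an alternative chosen after the data were seen. Then 3 of 60 members were at least 2-fold higher, Cfap65, Dnah2 and Dnah12, as were 10.4% of all genes. The part of gene length in the heavy chain values was not tested further. For stage over 4 pairs, the same centring gave 9 members higher and 12 lower in P.

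**Figure D5:**
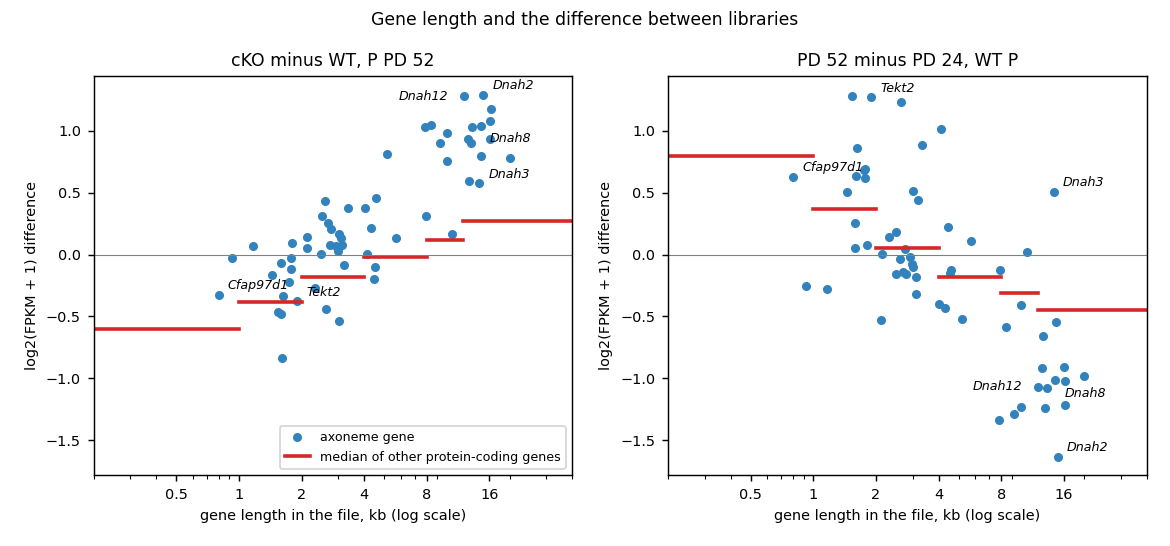
Difference in log2(FPKM + 1) against gene length (kb, log scale) for members (blue points) and the median of other protein-coding genes in 6 length classes (red lines), for MFN2 cKO against MFN2 WT in P at PD 52 (left) and PD 52 against PD 24 in MFN2 WT P (right). Members over 12 kb have medians of 0.94 (left) and -1.02 (right), farther from 0 than the red lines at 0.27 and -0.45.

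Whether the genotype difference itself changed with age or stage was tested over all 8 libraries, with 2 residual degrees of freedom. By limma neither passed for any member or other gene (0% called for genotype by age and 0% for genotype by stage). On simulated data both tests found 0% of planted 2-fold and 0% of planted 4-fold changes. With so few degrees of freedom, the absence of a call does not show that the genotype difference was the same. For genotype by age the members' median was 0.39 against 0.02 over all genes. At an unadjusted p under 0.05, 1626 of the 21175 genes were positive and 956 negative. Of the 62 members 4 had such a p, all with positive values. These were Cfap97d1 (2.15, SE 0.50, limma adjusted p = 0.21), Dnah3 (1.41, SE 0.37, limma adjusted p = 0.24), Tekt5 (1.33, SE 0.33, limma adjusted p = 0.23) and Cfap100 (1.00, SE 0.27, limma adjusted p = 0.27), each with MFN2 cKO lower relative to MFN2 WT at PD 24 than at PD 52. Limma voom on recovered reads called 3 of them, Cfap97d1, Dnah3 and Tekt5, at adjusted p of 0.017 to 0.048. It called 624 of the 21175 genes in all. Of the 15 spermatid markers 0 passed the limma test on log2(FPKM + 1), though all 15 had positive values, with a median of 1.59. Their sums were below MFN2 WT in both pairs at PD 24, above it in L/Z and below it in P at PD 52. For genotype by stage 1 member, Rsph9, had an unadjusted p under 0.05, and voom called 0. Of the 21175 genes, 288 with positive and 502 with negative values reached that p.

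Other axoneme genes, from a list of 49 that the name rule does not reach, were tested beside the members. They comprise arm assembly factors, docking and light chains, the 96-nm ruler, central apparatus, spoke and doublet lumen proteins, of which 48 were tested. For stage 5 were higher and 11 lower in P, for age 17 were higher and 0 lower at PD 52, and for genotype 0 were called. The shares of all genes were 12.0 and 15.9% for stage, and 11.2 and 4.91% for age. Their median for age was 0.45 against 0.0048 over all genes. Of the 7 doublet lumen proteins, which lie beside the tektins, 5 were higher at PD 52 and 3 lower in P. Ccdc39, the ruler that sets the spacing of inner arms and spokes, was at 25.6, 21.3, 51.8, 44.8, 28.3, 23.9, 21.8 and 44.0 FPKM, with MFN2 WT P at PD 52 as low as L/Z, like the heavy chains. Fbxl13, of the nexin-dynein regulatory complex, was at 20.7, 13.2, 8.37, 3.76, 37.3, 39.6, 16.9 and 17.9 FPKM, highest in L/Z at PD 52, like the tektins.

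Of 7 regulators of ciliary genes, 5 were tested. Rfx2 was the most abundant, at 63.4, 42.3, 76.5, 53.1, 89.0, 86.5, 61.0 and 76.2 FPKM, and its stage and age differences did not pass. Rfx4, with a restricted tissue range that includes testis, was at 13.9, 9.19, 21.7, 15.6, 23.4, 27.8, 18.1 and 24.5 FPKM, and Rfx1 was at 26.0, 15.9, 12.5, 6.90, 52.7, 51.1, 23.1 and 25.9 FPKM. Rfx1, Rfx3 and Foxj1, a forkhead activator of motile cilium genes, were the 3 regulators lower in P and the 3 higher at PD 52. Gmnc and Mcidas, which start the program in multiciliated cells, were under 1 FPKM in every library.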

How the data were processed

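RNA of 8 spermatocyte preparations, 1 per group of genotype, stage and age, was sequenced as paired reads of 150 bases. The authors deposited 1 table of FPKM values per gene, made from gene counts before deposit, with gene length and coordinates. Bowtie 0.12.2 and CASAVA 1.4 stand in the submitters' processing notes together with the builds mm8 and mm9, with no role given, whereas 98.3% of the table's gene IDs have the start and end of a GRCm38 annotation, so coordinates are given on GRCm38. All 8 columns of values were used (0 left out).

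From these values, FPKM times length was a whole multiple of 1 step per library in 100% of nonzero values (within 0.01), which gave whole reads and thus depth, 14340665 to 20379950 reads on genes. Counting intervals are exact (Clopper-Pearson, 95%) and cover counting error only. Because the unit is FPKM, the tests were limma 3.58.1 in R 4.3.3 on log2(FPKM + 1), over the 21175 genes above 1 FPKM in at least 1 library, with the pair as a block and Benjamini-Hochberg adjustment over all genes (threshold 0.05). Common effects of stage, age or genotype have 3 residual degrees of freedom and the genotype interactions 2. These p-values measure the spread between libraries of different groups, since none is replicated, and an exact sign-flip test over 4 pairs cannot go below p = 0.125. Pairs of libraries were compared without a test, as counts at least 2-fold different on FPKM + 1 among genes above 1 FPKM in either library. Alternatives were a pseudocount of 0.1, no filter, a further scaling of libraries by the median of ratios, protein-coding genes alone, voom on the recovered reads, no block, leaving out each pair and, chosen after the data were seen, centring within gene length classes and plain FPKM ratios. The scripts were tested on simulated data, where the interaction tests found few or none of the planted changes. Promoter windows come from RefSeq (GRCm38.p6), and protein sequences were not used here.

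The members and the gene lists were chosen with earlier results of these data known. Named with values in every library were the member with the highest mean of each name family, all Tekt and Rsph genes, the 5 outer arm heavy chains, in each genotype pair the 2 members highest and the 2 lowest in MFN2 cKO relative to MFN2 WT, in each limma test the 3 largest called differences in either direction, the 3 members with the highest mean and those below 1 FPKM in all libraries. These were 34 of the 65 members.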

Additional observations from a re-analysis of the deposited data

How the results depend on the processing

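No member called in a test changed direction under any alternative, and the counts moved as follows. Members called higher in P, 8 in the main test, numbered 1 with a pseudocount of 0.1, 1 with no filter on low values, 5 with further scaling, 14 with voom on the recovered reads (all 8 among them) and 3 without the block for the pair, and leaving out 1 pair of libraries in turn gave 0 to 15. Members lower in P, 11 in the main test, numbered 0 without the block, and 0 to 9 when leaving out 1 pair. Members higher at PD 52, 12 in the main test, numbered 7 with a pseudocount of 0.1, 18 with voom on the recovered reads, 0 without the block, and 0 to 12 when leaving out 1 pair. Members called for genotype by age numbered 3 with voom instead of 0. Among pairs of libraries, a pseudocount of 0.1 and the plain FPKM ratio, the latter chosen after the data were seen, both gave 5 members at least 2-fold lower in MFN2 cKO L/Z at PD 24 instead of 3, 1 higher in MFN2 cKO L/Z at PD 52 instead of 0, and 4 different with age in MFN2 WT L/Z instead of 2. Centring within gene length classes was chosen after the data were seen. It gave 1 higher in MFN2 cKO L/Z at PD 52 instead of 0, where 3.16% of all genes were higher. In MFN2 cKO P at PD 52 it gave 3 higher instead of 8, where 10.4% of all genes were. It also gave 6 different with stage in MFN2 cKO at PD 52 instead of 12, 21 different with age in MFN2 cKO L/Z instead of 13 and 5 in MFN2 WT P instead of 14. Beyond the fewer libraries or the changed scale that each alternative itself brings, the cause was not tested. Over all genes, the main 5917 calls for stage became 0 to 7604 and the 3405 for age 0 to 4385. The 18 for genotype became 0 to 114, the 0 for genotype by age up to 624 (voom; 193 among protein-coding genes alone) and the 0 for stage by age up to 7. The pairs that serve as blocks are libraries that share the other labels, not replicate numbers.

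With 1 library per group, the tests reach common differences over 4 pairs only, and a difference within 1 pair has counting error as its known error. Counting error matters most for the lowest members, with 8 to 25 reads per library on Rsph4a, 11 to 59 on Cfap97d2 and 16 to 233 on Dnah11.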
